A study of Rattus norvegicus with 4 samples.

Results

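The core genes of the circadian clock were followed in RNA of the rat hippocampus, the brain region of spatial memory, after voluntary running. The genes were chosen by name: *Bmal1* (also written *Arntl*) and *Clock*, *Per1*, *Per2*, *Per3*, *Cry1* and *Cry2*, *Nr1d1* and *Nr1d2*, and *Dbp*. These 10 genes had 11 probes, out of 41012 probes on the array, of which 10768 could be named for 8899 genes. *Per3* had 2 probes and each other gene had 1.

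The rats were male Wistar rats, 10 weeks old at the start, in 3 groups: 10 sedentary rats, 8 rats with wheel running (WR) and 8 rats with resistance wheel running (RWR), in which the load on the wheel was raised to 30% of body weight over the 4 weeks. All groups lived under 12 h of light and 12 h of dark with lights on at 8 h, and the tissue was taken between 8 and 12 h on the day after running ended. The RNA of each group was combined into 1 pool, in amounts that the methods give per replicate and in total and that correspond to 3 replicates. Whether such a replicate is 1 rat, and the order in which the groups were collected, are not given in the sources used here. Pools were labelled with the dyes Cy3 and Cy5 and compared in 2 colours on 4 chips: WR was set against sedentary on chips 1 and 2 and RWR against sedentary on chips 3 and 4, with the dyes exchanged between the chips of a pair. The running pool was in Cy5 on chips 1 and 3 and in Cy3 on chips 2 and 4. Both chips of a pair read the same RNA again, so that there is 1 biological replicate per comparison, no test between the conditions and no error across rats. Because the level of many clock mRNAs depends on the hour, time of collection and group cannot be told apart here, and in tissue RNA fewer cells of a type and less RNA per cell cannot be told apart either.

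In the mammalian clock, *Bmal1* and *Clock* encode transcription factors that bind E-boxes as a dimer and switch on the *Per* and *Cry* genes, whose proteins then repress that dimer. A further loop runs through *Nr1d1* and *Nr1d2*, the REV-ERB receptors, which are also E-box targets and repress *Bmal1* through RORE elements. *Dbp* is an output factor that is driven by E-boxes and acts on D-boxes, among them that of *Per2*. The loop runs in most cells of the body, and outside the suprachiasmatic nucleus, the central pacemaker, its timing follows feeding, activity and glucocorticoids.

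These elements were searched for in the 250 bases before the transcription starts, as RefSeq gives them on the GRCr8 assembly. Of the 10 genes, 9 had an entry, with 11 starts in all. The words searched on both strands were CACGTG (E-box), CACGTT (E-prime-box), TTATGTAA and TTACGTAA (D-box), TAGGTCA and TGGGTCA (core of the RORE) and TGACGTCA (cAMP response element). Windows of 4 genes are shown because they hold, or in the case of *Dbp* lack, the words through which the loop is wired. They are written 5′ to 3′ along the gene, with a matched word in capitals, and end at the base before the start. The windows are chr9:99496994-99497243 for *Per2* (minus strand), chr1:176766078-176766327 for *Bmal1* (plus strand), chr10:84229455-84229704 for *Nr1d1* (minus strand) and chr1:105312006-105312255 for *Dbp* (plus strand).
Per2: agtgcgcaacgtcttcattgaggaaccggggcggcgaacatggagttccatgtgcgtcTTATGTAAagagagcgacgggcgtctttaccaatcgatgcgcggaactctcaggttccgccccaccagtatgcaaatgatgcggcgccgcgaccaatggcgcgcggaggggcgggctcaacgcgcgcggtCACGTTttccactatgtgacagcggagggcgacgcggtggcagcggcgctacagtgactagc
Bmal1: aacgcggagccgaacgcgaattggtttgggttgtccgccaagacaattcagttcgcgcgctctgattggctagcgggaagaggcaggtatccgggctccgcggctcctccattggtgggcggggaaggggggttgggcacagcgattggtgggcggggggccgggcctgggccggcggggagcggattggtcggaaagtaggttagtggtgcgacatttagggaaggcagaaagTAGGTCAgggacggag
Nr1d1: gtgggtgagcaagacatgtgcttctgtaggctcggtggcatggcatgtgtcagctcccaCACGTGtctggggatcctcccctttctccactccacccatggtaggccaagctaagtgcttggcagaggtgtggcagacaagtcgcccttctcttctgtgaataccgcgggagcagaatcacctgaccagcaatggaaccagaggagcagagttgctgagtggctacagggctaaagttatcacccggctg
Dbp: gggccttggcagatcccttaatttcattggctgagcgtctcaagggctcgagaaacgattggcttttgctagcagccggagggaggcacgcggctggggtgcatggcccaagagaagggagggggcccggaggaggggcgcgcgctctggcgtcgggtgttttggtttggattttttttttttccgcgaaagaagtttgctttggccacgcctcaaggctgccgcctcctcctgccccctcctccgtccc

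The *Per2* window held a D-box, TTATGTAA, 192 to 185 bases before the start and an E-prime-box, CACGTT, 62 to 57 bases before it. The *Bmal1* window held the RORE core TAGGTCA 16 to 10 bases before the start, and the printed *Nr1d1* window held the E-box CACGTG 191 to 186 bases before it. The other *Nr1d1* start and the *Cry2* start each held an E-prime-box on the opposite strand, AACGTG. In all, 5 of the 11 windows held a word. The share of all windows that hold any of these words was not computed, so that this count has no matching background. Each element alone also occurs elsewhere. Among 33469 windows of the same length, 5.59% held the E-box, 4.07% the E-prime-box and 0.932% the D-box. The RORE core stood in 5.62% of them and the cAMP response element in 1.59%. The windows of *Dbp*, *Per1*, *Per3*, *Nr1d2* and both *Clock* starts held none. A match is a description of letters, and a window without one says only that these words do not stand in those 250 bases.

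No clock gene was called changed in either comparison. Ratios are given as log2 of the running over the sedentary signal, with the error that the error model of the scanner software gave for that spot. A ratio was tested where each chip of the pair had 1 dye or both well above background, and a change was called where both chips passed 1.5-fold upward or 0.75-fold downward. All 10 genes were tested in both comparisons and 0 passed, while 0.127% of 29853 tested probes passed in WR and 0.432% of 32382 in RWR. With a p-value of the error model under 0.01 on both chips as a further demand, 0 clock genes passed as well, against 0.0435% of probes in WR and 0.0741% in RWR. At such background shares a count of 0 of 10 is not a result about these genes. The mean of the pair ranged from -0.13 for *Cry1* to 0.20 for *Per3* in WR and from -0.18 for *Clock* to 0.20 for *Nr1d1* in RWR, with errors of 0.14 to 0.25 in WR and 0.14 to 0.24 in RWR.

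The ratio depended on the dye more than on the pool for 6 of the 10 genes in each comparison. The same held for 74.3% of all tested probes in WR and 70.6% in RWR. By arithmetic, these are the genes and probes whose turned ratios had opposite signs, the complement of the counts of the same sign below. After the turn to running over sedentary, a true difference between pools has the same sign on both chips of a pair, and a difference between dyes has opposite signs. *Bmal1*, *Cry1*, *Cry2* and *Dbp* had the same sign on both chips in WR, which is 4 of 10 against 25.7% of all tested probes. *Bmal1*, *Cry1*, *Nr1d1* and *Dbp* did so in RWR, again 4 of 10, against 29.4%. Both pairs used the sedentary pool, taken to be the same RNA on all 4 chips, so that WR and RWR are not independent and their values are only set side by side. The median over the 10 genes was -0.03 in WR and 0.04 in RWR, against 0.0057 and 0.00026 over all tested probes. It was 0.11 on chip 1 alone, -0.10 on chip 2 alone, 0.12 on chip 3 alone and -0.08 on chip 4 alone, so that its sign followed the dye of the running pool.

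**Figure D1:**
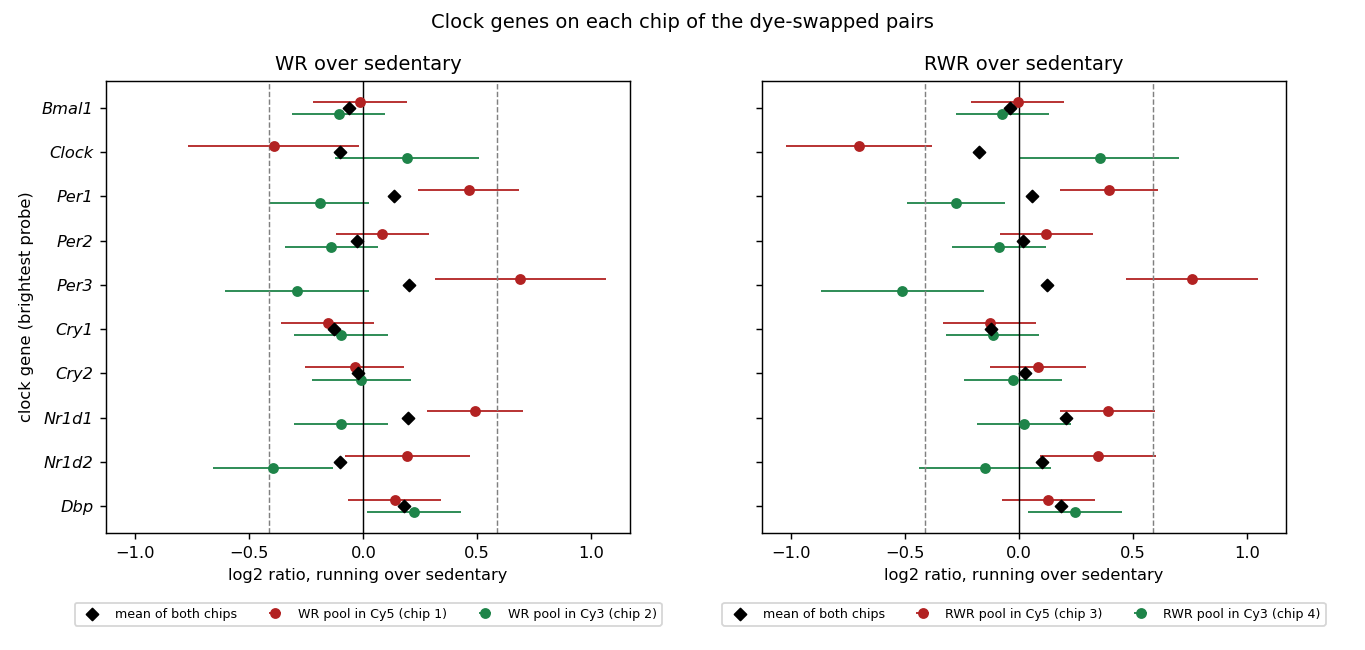
The log2 ratio of running over sedentary (horizontal axis) for the 10 clock genes (vertical axis, brightest probe) on each chip, WR left and RWR right. Points are chips, coloured by the dye of the running pool, bars are the error of the error model, black diamonds are the mean of both chips and dashed lines mark 1.5-fold and 0.75-fold. The chips of a pair stand close together for *Dbp*, *Cry1* and *Bmal1*, and on opposite sides of 0 for *Per1*, *Per3* and *Clock*.

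*Dbp*, the output factor, read higher in the running pool on all 4 chips. Its sedentary signal was 1763, 1652, 1881 and 1664 on chips 1 to 4. Its running signal was 1940 and 1927 in the WR pool and 2054 and 1970 in the RWR pool. The lowest running reading, 1927, lay a little above the highest sedentary one, 1881, in repeated measurements of 3 pools. These signals are not scaled between chips, whose median sedentary signal ranged from 66.4 to 74.6. The share of all probes with such an order, or with the same sign on all 4 chips, is not given here. This gave log2 ratios of 0.14 ± 0.20 and 0.22 ± 0.21 on the WR chips and 0.13 ± 0.20 and 0.24 ± 0.21 on the RWR chips. The mean was 0.18 ± 0.14 (1.13-fold) in WR and 0.19 ± 0.14 (1.14-fold) in RWR, larger than its error in both and short of the 1.5-fold demanded for a call. It moved little with the background correction: after normexp correction it was 0.19 in WR and 0.20 in RWR. With *Nr1d1*, *Dbp* was 1 of the 2 clock genes whose mean exceeded its error, in both comparisons, and 10.9% of all tested probes did so in WR and 15.1% in RWR. Of these, *Dbp* alone had the same sign on both chips of both pairs.

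The activators gave no mean ratio beyond its error. *Bmal1*, the partner of CLOCK, read 939, 1063, 1205 and 1100 in the sedentary pool and 930, 986, 1200.4 and 1045 in the running pool on chips 1 to 4. The running signal was the lower one on all 4 chips, by small amounts, and the spread between chips within the sedentary pool was larger than any gap on a chip. The log2 ratio was -0.01 and -0.11 on the WR chips, with a mean of -0.06 ± 0.14. It was -0.0057 and -0.07 on the RWR chips, with a mean of -0.04 ± 0.14.

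*Clock*, the other activator, had opposite signs on the chips of both pairs. Its sedentary signal was 35.7, 29.3, 36.1 and 25.4 on chips 1 to 4, and its running signal 27.2, 33.5, 22.2 and 32.4, so that the pool labelled with Cy5 was the lower one on every chip. Its log2 ratio was -0.39 ± 0.38 and 0.19 ± 0.32 in WR, and -0.70 ± 0.32 and 0.35 ± 0.35 in RWR. The mean was -0.10 ± 0.25 in WR and -0.18 ± 0.24 in RWR. The value on chip 3 had an error-model p-value of 0.028, which describes that spot and not the rats. Without background subtraction the RWR mean was 0.0037, on the other side of 0.

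Among the repressors, *Cry1* had the same sign on all 4 chips and *Per3* changed sign within each pair. *Cry1*, which encodes the stronger repressor of the dimer, read 652, 605, 695 and 594 in the sedentary pool and 585, 565, 635 and 548 in the running pool on chips 1 to 4. The running signal was the lower one on each chip. The log2 ratio was -0.16 and -0.10 in WR (mean -0.13 ± 0.15) and -0.13 and -0.12 in RWR (mean -0.12 ± 0.14). These means did not exceed their errors, and the WR mean was -0.08 after normexp correction. *Cry2* gave -0.04 and -0.0083 in WR (mean -0.02 ± 0.15) and 0.08 and -0.03 in RWR (mean 0.03 ± 0.15), and its WR mean was 0.0033 after normexp correction, so that no direction can be given.

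*Per1*, which is also induced by glucocorticoids and neuronal activity, was higher in the running pool where that pool was in Cy5 and lower where it was in Cy3. Its sedentary signal was 106, 116, 113 and 134 and its running signal 146, 101, 148 and 110 on chips 1 to 4. In WR the log2 ratio was 0.46 ± 0.22 and -0.19 ± 0.22, with a mean of 0.14 ± 0.16. It was 0.39 ± 0.21 and -0.28 ± 0.22 in RWR, with a mean of 0.06 ± 0.15 that became -0.03 after normexp correction and -0.02 without background subtraction. The error-model p-value of chip 1 alone was 0.039, while its partner chip pointed the other way. *Per2*, which carries the D-box and E-prime-box printed above, read between 631 and 687 in the sedentary pool and between 592 and 745 in the running pool. Its log2 ratio was 0.08 and -0.14 in WR (mean -0.03 ± 0.14) and 0.12 and -0.09 in RWR (mean 0.02 ± 0.14).

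*Per3* was read near background. Its brighter probe gave a sedentary signal of 24.9, 33.0, 26.0 and 29.7 and a running signal of 40.1, 27.0, 44.0 and 20.8 on chips 1 to 4. The sedentary reading on chip 1 and the running reading on chip 4 were not well above background. The log2 ratio was 0.69 ± 0.38 and -0.29 ± 0.32 in WR (mean 0.20 ± 0.25) and 0.76 ± 0.29 and -0.51 ± 0.36 in RWR (mean 0.12 ± 0.23). On chip 3 the ratio had an error-model p-value of 0.0088, and on chip 4 it lay beyond 0.75-fold in the opposite direction. The other *Per3* probe rose well over background for the sedentary pool of chip 4 alone, which allows no fold.

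The ratios of both REV-ERB genes were higher where the running pool was in Cy5. *Nr1d1*, whose window with an E-box is printed above, read 288, 331, 320 and 309 in the sedentary pool and 405, 310, 419 and 314 in the running pool. The high readings are those of the running pool in Cy5, on chips 1 and 3, and on chips 2 and 4 the pools nearly coincided. For *Nr1d1* the log2 ratio was 0.49 ± 0.21 and -0.10 ± 0.21 in WR and 0.39 ± 0.21 and 0.02 ± 0.21 in RWR. The mean was 0.20 ± 0.15 (1.14-fold) in WR and 0.20 ± 0.15 (1.15-fold) in RWR, larger than its error in both although the WR chips had opposite signs, and 0.14 and 0.13 after normexp correction. The size is close to that of *Dbp*, but for *Nr1d1* most of it came from the chips with Cy5.

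*Nr1d2* had opposite signs on the chips of each pair. Its sedentary signal was 56.6, 62.5, 48.7 and 47.3 and its running signal 64.7, 47.5, 61.9 and 42.7 on chips 1 to 4. The log2 ratio was 0.19 ± 0.28 and -0.40 ± 0.26 in WR (mean -0.10 ± 0.19) and 0.35 ± 0.25 and -0.15 ± 0.29 in RWR (mean 0.10 ± 0.19). No direction can be given from either pair.

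**Figure D2:**
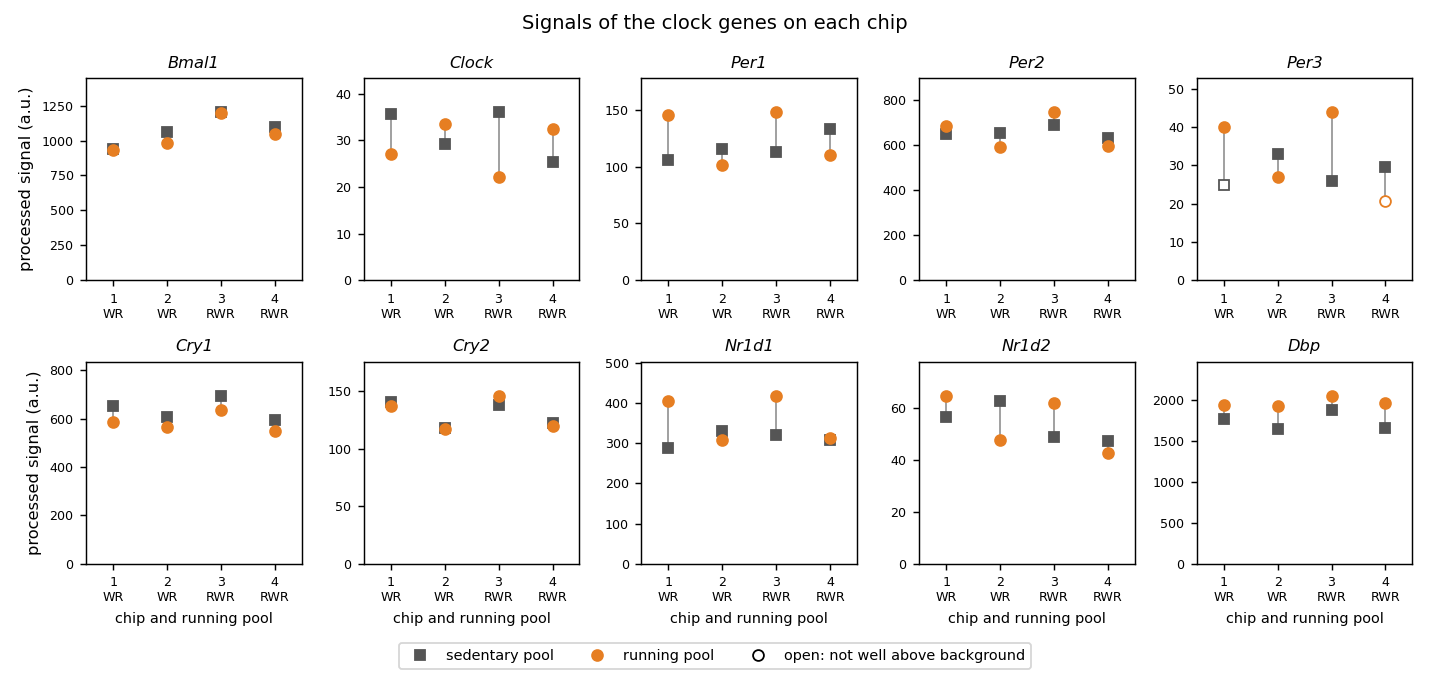
Processed signal in arbitrary units (vertical axis, from 0, with its own scale for each gene) of the sedentary pool (squares) and the running pool (circles) on chips 1 to 4, with open symbols where a spot was not well above background. The running pool of *Dbp* lies above the sedentary pool on every chip and that of *Cry1* below it, while *Clock*, *Per1* and *Per3* change order with the dye.

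Each pair can be split into a pool part, the mean of both turned chips, and a dye part, their difference divided by 2. The split restates the ratios of the chips and adds no further evidence. The absolute dye part of the clock genes had a median of 0.20 in WR and 0.14 in RWR, against 0.127 and 0.128 over all tested probes. By arithmetic, the absolute dye part is larger than the absolute pool part exactly where the chips have opposite signs. The 6 of the 10 genes in each comparison are thus those without the same sign. So are the 74.3% of tested probes in WR and the 70.6% in RWR. The dye part was 0.49 in WR and 0.64 in RWR for *Per3*, 0.33 and 0.34 for *Per1*, and -0.29 and -0.53 for *Clock*. It was -0.04 and -0.06 for *Dbp* and -0.03 and -0.0064 for *Cry1*. The absolute pool part of the clock genes had a median of 0.11 in both comparisons, against 0.06 in WR and 0.07 in RWR over all probes. This median includes *Per3*, *Clock* and *Nr1d2*, which read near background. No set of probes of like signal was formed beside it, and the difference from all probes was not tested.

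**Figure D3:**
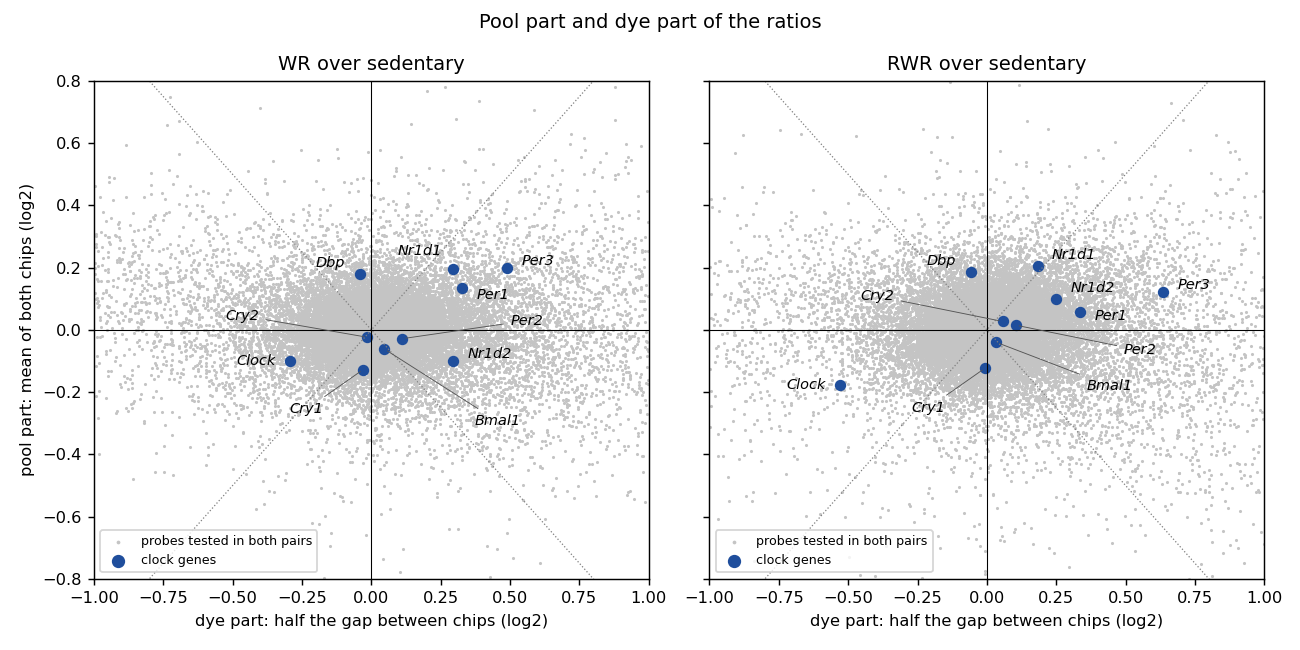
Pool part (vertical axis, log2) against dye part (horizontal axis, log2) of the ratio of running over sedentary, WR left and RWR right. Blue points are the 10 clock genes, grey points the probes tested in both comparisons, and on the dotted lines both parts are equal. *Dbp* and *Cry1* lie near the vertical axis, and *Per3*, *Per1* and *Clock* far to its sides.

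The dye part runs through the whole array. Over 29371 probes, the turned ratios correlated at Pearson r = -0.810 between chips 1 and 2 and at -0.747 between chips 3 and 4, and at 0.798 between chips 1 and 3 and 0.788 between chips 2 and 4, as a description in which all points share dyes, pools and a slide. The direction of every ratio rests on the dyes as the labels give them, which was not tested. Each chip held 43379 noncontrol spots, of which 67.5% to 82.5% were well above background in the sedentary pool and 69.0% to 77.9% in the running pool, and 0 were saturated.

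RWR could be set against WR within the same dye, which removes the dye part that the chips share. On chips 3 minus 1 and 4 minus 2, the mean difference ranged from -0.08 for *Per1* to 0.20 for *Nr1d2*, with errors of 0.20 to 0.34. In 0 of 10 clock genes was it larger than its error, against 9.04% of all tested probes. *Nr1d2* had the highest value, 0.15 in Cy5 and 0.25 in Cy3 (mean 0.20 ± 0.27), without clearing the error. Its ratio over sedentary was thus higher in RWR than in WR in both dyes. The running signal itself was lower in RWR, 61.9 against 64.7 in Cy5 and 42.7 against 47.5 in Cy3. The sedentary signal was also lower beside RWR, 48.7 and 47.3 against 56.6 and 62.5. The mean difference of *Nr1d2* was 0.29 after normexp correction and 0.10 without background subtraction.

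*Dbp* hardly differed between the running pools, with -0.01 in Cy5 and 0.02 in Cy3 (mean 0.0056 ± 0.20). *Clock* and *Per3* were the least repeatable, with -0.31 and 0.16 for *Clock* and 0.07 and -0.22 for *Per3*. The sign was the same in both dyes for *Bmal1*, *Per1*, *Per2* and *Nr1d2*, 4 of 10, against 54.9% of all tested probes. The mean of *Bmal1*, 0.02 ± 0.20, turned to -0.0079 after normexp correction. The median over the 10 genes was 0.0076, against -0.0046 over all probes.

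**Figure D4:**
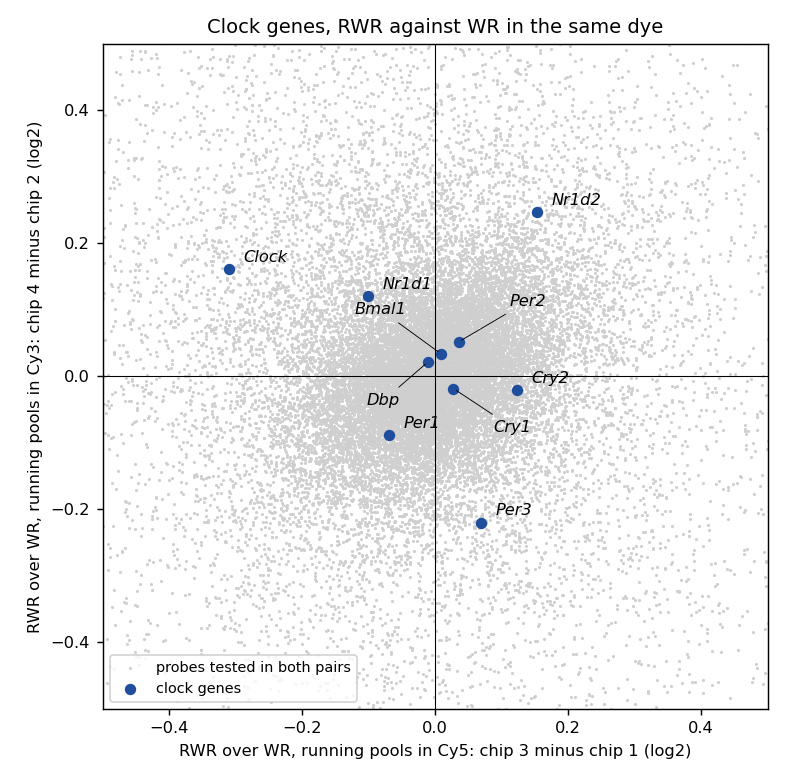
The log2 difference of RWR minus WR with the running pools in Cy5 (horizontal axis) and in Cy3 (vertical axis), with the 10 clock genes in blue over the probes tested in both comparisons in grey. *Nr1d2* lies farthest to the upper right at 0.15 and 0.25, *Dbp*, *Bmal1*, *Per2* and *Cry1* lie near the centre, and *Clock* and *Per3* lie where the dyes disagree.

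No gene of the rest of the pathway was called either. Of 40 further genes in 4 lists, 28 could be named on the array and 27 were tested in each comparison; *Prok2*, a secreted output peptide of the pacemaker, was not. The count of called genes was 0 of 27 in both comparisons, against 0.127% of all tested probes in WR and 0.432% in RWR, shares at which a count of 0 is not a result about this pathway. In WR 11 of 27 had the same sign on both chips, against 25.7% of all tested probes, and in RWR 9 of 27, against 29.4%. The medians were 0.02 in WR and -0.0019 in RWR. The mean exceeded its error for *Tef*, *Btrc* and *Avp* in RWR, 3 of 27 against 15.1% of all probes, and for 0 genes in WR, against 10.9%.

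Among the other transcription factors of the loop, 6 of 14 were named, and all 6 were tested. *Bhlhe41*, a repressor at E-boxes, had the highest WR mean, 0.08 ± 0.14, and its paralogue *Bhlhe40* the highest RWR mean, 0.12 ± 0.15. *Timeless* had the lowest in WR, -0.09 ± 0.19, which became 0.03 after normexp correction. *Tef*, which binds D-boxes as DBP does, was lowest in RWR with -0.25 and -0.17 on the chips (mean -0.21 ± 0.15) and -0.18 after normexp correction, while its WR mean was -0.03 ± 0.14. The related D-box factors *Dbp* and *Tef* thus stood on opposite sides of 0 on both RWR chips. They did so on both WR chips as well, where *Tef* gave -0.05 and -0.0017. The error-model p-values of *Tef* on the RWR chips were 0.22 and 0.42.

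Among kinases, ligases and other modifiers of the clock proteins, 8 of 12 were named, and all 8 were tested. *Usp2*, a deubiquitinase, had the highest WR mean, 0.09 ± 0.14, and *Csnk1d*, the casein kinase that marks PER proteins for degradation, the lowest, -0.05 ± 0.15. In RWR the highest was *Gsk3b*, 0.07 ± 0.14, and the lowest *Btrc*, the ubiquitin ligase subunit that recognises marked PER. *Btrc* gave -0.08 and -0.38 on the RWR chips (mean -0.23 ± 0.21) and -0.05 after normexp correction. Its signal was low, 30.3 to 37.6 in the sedentary pool and 25.9 to 35.7 in the running pools.

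All 8 output genes were named and 7 were tested. *Gpam*, of lipid synthesis, was highest in WR at 0.075 ± 0.16 and *Por*, the reductase of cytochrome P450 enzymes, highest in RWR at 0.05 ± 0.14. *Avp*, the vasopressin gene and an E-box target in the pacemaker, was lowest in both, at -0.12 ± 0.15 in WR and at -0.25 ± 0.15 in RWR, where the chips gave -0.14 and -0.36. *Avp* is also a hypothalamic marker; of the other hypothalamic markers, *Oxt* gave 1.14 and -1.16 on the WR chips and 0.42 and -0.61 on the RWR chips, and *Hcrt* 0.15 and -0.15 and 0.11 and -0.11. The summed signal of the 4 named hypothalamic markers was 334 and 360 in the sedentary pool against 374 and 296 in the WR pool on chips 1 and 2, and 382 and 414 against 392 and 340 in the RWR pool on chips 3 and 4. For 2 of the 4 the sedentary reading was well above background on all chips, and the part of this tissue in the *Avp* values was not tested.

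All 6 glucocorticoid-induced genes were named and tested. They were followed because *Per1* responds to the same hormone. *Ddit4* was highest in WR, 0.05 ± 0.15, and lowest in RWR, -0.14 ± 0.15, where its chips gave -0.52 and 0.24. *Tsc22d3* was lowest in WR at -0.02 ± 0.14, and *Zbtb16* highest in RWR at 0.03 ± 0.15; both changed sign after normexp correction. The median of the list was 0.02 in WR and -0.04 in RWR.

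**Figure D5:**
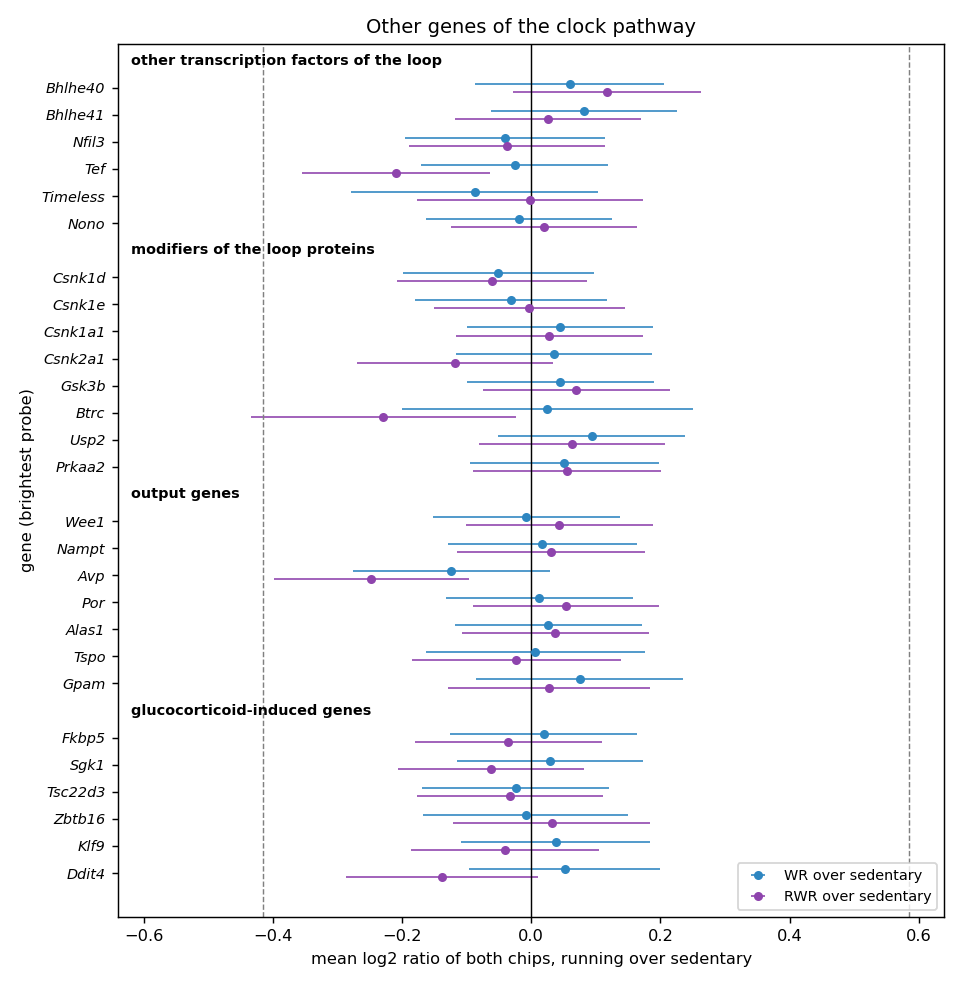
Mean log2 ratio of both chips (horizontal axis, bars are the error of the error model) for the 27 tested genes of the 4 pathway lists (vertical axis), WR in blue and RWR in purple, with dashed lines at 1.5-fold and 0.75-fold. No mean passes a dashed line, and *Tef*, *Btrc* and *Avp* are the genes whose RWR bar does not reach 0.

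Markers of the labelled tissue were present: 5 of 8 hippocampal markers were named, *Calb1*, *Wfs1*, *Camk2a*, *Slc17a7* and *Neurod2*, and all 5 were well above background on every chip. Of the markers of tissue from beside the hippocampus, *Ttr* and *Prl* were called. *Ttr*, a choroid plexus transcript, was called lower in WR (-0.72 and -0.99 on the chips, mean -0.86 ± 0.16) and stood at 0.12 ± 0.14 in RWR. The summed signal of all 5 choroid plexus markers was 603 and 615 in the sedentary pool against 402 and 347 in the WR pool, and 709 and 651 against 785 and 682 in the RWR pool. *Ttr* gave most of that sum. The other 4 markers, of low signal, summed to 83.5 and 84.2 in the sedentary pool against 87.2 and 80.0 in the WR pool. On the RWR chips they summed to 127 and 116 against 118 and 131. Among them, *Folr1* gave -0.07 and -0.36 on the WR chips (mean -0.21 ± 0.22) and *Aqp1* 0.12 and -0.04 (mean 0.04 ± 0.30). Whether the share of choroid plexus differed between the pools was not tested. The marker *Kl* was well above background in no pool. *Prl*, a pituitary hormone, was called lower in both comparisons and was not well above background in any running reading, so that its fold is a bound, at least 1.504-fold lower in WR and at least 2.005-fold lower in RWR (means of log2 signals after Aquantile normalization, with a dim reading raised to the lowest signal that stood well above background on its chip). The WR call of *Prl* failed the further demand on the error-model p-value, which was 0.20 on chip 2. After normexp correction the mean log2 ratio of *Prl* was -0.13 in WR and -0.29 in RWR. Both fall short of these bounds, which rest on the deposited background subtraction. The summed signal of all 5 pituitary markers, to which *Pomc* gave the most, was 799.5 and 763 in the sedentary pool against 791 and 705 in the WR pool, and 882 and 869.8 against 901 and 869.0 in the RWR pool. *Gh1* was lower in the running pool on every chip, at -0.06 and -0.52 in WR (mean -0.29 ± 0.18). It gave -0.11 and -0.16 in RWR (mean -0.14 ± 0.16). After normexp correction the means of *Gh1* were -0.08 and -0.10. *Pomc* stood at 0.02 ± 0.15 in WR and 0.06 ± 0.15 in RWR, and *Cga* and *Lhb* changed sign within each pair. The part of such tissue in the clock gene values was not tested.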

How the data were processed

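RNA of the hippocampus was pooled by the authors within each group, labelled and hybridized to a rat whole-genome oligo array of 2 colours with the dyes swapped. The scans were processed by the authors with Feature Extraction 11.0.1.1, with background subtraction and LOWESS dye normalization. Per spot and dye, the resulting intensity was deposited as the processed signal. The log10 of Cy5 over Cy3 was deposited as the ratio, and the deposited p-value and log ratio error come from the error model of the software for that chip. The authors' series matrix holds the same deposited log10 ratios, unturned, with medians of 0.00851, 0.0045, 0.0037 and 0.00214 on chips 1 to 4. They equalled the scanner ratio within 5.3e-06 where it was measured.

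Control spots and 118 to 140 outlier spots per chip were left out, log2 ratios of running over sedentary were formed with the sign set by the dyes, spots of a probe were averaged, and a gene was represented by its brightest probe. Errors of a mean combine those of its chips. The array was designed on rn4, and accessions were named through the RefSeq table of GRCr8. The number of chips limits the precision, and no test across rats was possible. The genes, lists and alternatives were chosen with earlier results of these data known; besides the clock genes, the genes named from the pathway lists were those called and, per list and comparison, the highest and lowest mean among genes well above background in both dyes. The lists were those of the report and markers of hippocampus, choroid plexus, pituitary, hypothalamus, oligodendrocytes, astrocytes, microglia, endothelium and blood. Alternatives were normexp background correction (offset 50) or none, each with loess in limma 3.58.1 under R 4.3.3, median centring, the matrix values, all probes of a gene, a filter that keeps probes above background in each dye, equal cutoffs, the p-value filter and leaving out a chip. Python 3.11.15 with numpy 2.4.6, pandas 2.3.3 and matplotlib 3.10.9 was used.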

Additional observations from a re-analysis of the deposited data

Results flagged for a closer look

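Among 68 listed genes tested in both comparisons, 3 had the same sign on both WR chips and the opposite sign on both RWR chips. The rule asks for no size, and the share of all probes that meet it is not given here. The differences were not tested, and the comparisons share the sedentary pool. *Ttr* stood 0.98 higher (log2) in RWR over sedentary than in WR over sedentary. *Sgk1*, a kinase gene induced by glucocorticoids, stood at 0.04 and 0.02 on the WR chips and -0.04 and -0.08 on the RWR chips, a difference of -0.092. *Csf1r*, a microglial receptor, differed by -0.040. The differences of *Sgk1* and *Csf1r* are smaller than the error of their means. No clock gene was among the 3.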

How the results depend on the processing

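The count of clock genes called was 0 in both comparisons under every alternative with both chips. Leaving out a chip gave 0 to 1 called in WR, where chip 1 alone called *Per3* higher, and 1 to 2 in RWR, where chip 3 alone called *Per3* higher and *Clock* lower and chip 4 alone called *Per3* lower. A single chip turned the sign of 6 of the 10 clock genes in WR (*Clock*, *Per1*, *Per2*, *Per3*, *Nr1d1*, *Nr1d2*) and of 6 in RWR (*Clock*, *Per1*, *Per2*, *Per3*, *Cry2*, *Nr1d2*). These are again the genes whose chips had opposite signs. Of 59 values of single clock genes under the alternatives with both chips, the sign turned for 1 in WR (*Cry2*) and for 4 in RWR, of the 3 genes *Per1*, *Clock* and *Per3*, the last through the median with a probe that is not well above background. *Dbp* kept its sign under all of them and on every chip. The count with the same sign ranged from 3 to 5 and cannot be given with 1 chip. The median over the clock genes turned its sign on single chips, from -0.10 to 0.11 in WR and from -0.08 to 0.12 in RWR. The differences of RWR minus WR, with alternatives chosen after seeing the data, turned their sign after normexp correction for *Bmal1*, *Clock*, *Per3*, *Cry1* and *Nr1d1*. No scaling moved the median of all probes by 0.1. No paired analysis was possible because each group is 1 pool without replicate numbers. Signal near background limits *Per3*, *Clock* and *Nr1d2*, whose errors are the largest among the clock genes, and *Btrc* among the pathway genes.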

Other observations

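Among markers of other cells, which the clock comparisons did not use, oligodendrocyte genes of the myelin sheath had medians of -0.07 (WR) and -0.11 (RWR) on the log2 scale over 4 genes, with 2 of 4 on the same side of 0 on both chips in each comparison (25.7% of all tested probes in WR and 29.4% in RWR) and 0 called (0.127% and 0.432% of all tested probes). *Mbp*, of compact myelin, gave -0.14 and 0.00049 on the WR chips and -0.36 and -0.12 on the RWR chips, where its mean was -0.24 ± 0.15. Astrocyte genes had medians of 0.0078 and 0.01 and microglial genes of 0.04 and -0.0082, with 0 of 4 called in each. The 2 tested endothelial genes had medians of -0.04 and -0.09 and the 2 tested blood genes of -0.02 and 0.0033, with 0 called.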
